A study of Mus musculus with 15 samples.

Results

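Hematopoietic progenitors made from mouse fetal liver and kept growing by Hoxb8 were profiled here in their wild-type state. They are the 3 libraries titled as control cells with empty vector, out of 15 libraries in the study, and all 3 were used. The study asked how variants of the RNA helicase DDX41 act in such cells, and the other 12 libraries, from a line with 1 intact copy of Ddx41, are not used here. The cells carry both copies of Ddx41 (genotype hi-Ddx41+/+), were cultured with β-estradiol, were incubated for 2 days with an empty retrovirus and were sorted for GFP. Immortalization, estradiol, infection and the sort were thus common to all 3 libraries, so the profile is that of dividing, infected cells of a single line and not of fetal liver. The labels do not say whether the 3 samples came from separate cultures, so the spread between them may be technical.

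Hoxb8 is a homeobox transcription factor that, held active, keeps myeloid progenitors dividing and blocks their maturation. In the usual form of this system it is fused to the hormone-binding part of the estrogen receptor, so that estradiol in the medium keeps it on and removal of the hormone lets the cells become neutrophils or macrophages. Early progenitors are known for the surface protein CD34, the receptor tyrosine kinases KIT and FLT3 and the transcription factor MYB, and those that turn to the granulocyte path begin to make the granule enzyme myeloperoxidase.

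Total RNA freed of ribosomal RNA was sequenced to a depth of 33668669, 36416176 and 37109795 expected counts in libraries 1, 2 and 3. Levels are in TPM, a transcript abundance which divides counts by transcript length and sets each library to the same total, so genes can be compared with each other. Levels with an error are the mean ± SD of the 3 libraries, and 3 numbers in a row are libraries 1, 2 and 3. A gene with a mean of at least 1 TPM is called expressed, and one at 100 TPM or more abundant. A gene with no count in any library may still lie below what 3 counts per library would give, a limit that covers counting error only. The libraries were alike, with a Pearson correlation across genes of 0.985 between libraries 1 and 2, 0.983 between 1 and 3, and 0.984 between 2 and 3 on log2(TPM + 1), a description over genes. In such bulk samples fewer cells that make an RNA cannot be told apart from less of it in each cell.

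The 5 progenitor markers were all expressed, and their order was the same in every library. Cd34, a sialomucin of stem and progenitor cells, stood at 746, 681 and 702 TPM. Mpo, myeloperoxidase, stood at 539, 495 and 363 TPM. Myb, which sustains self-renewal and division, stood at 231, 197 and 201 TPM. Cd34 and Myb thus varied little on this scale, while Mpo was lowest in library 3. With TPM rescaled over nuclear protein-coding genes, all 3 were lowest in library 3. On that scale Cd34 was at 1257, 1234 and 1097, Mpo at 907, 898 and 567 and Myb at 388, 357 and 315. Kit and Flt3 were lowest there in library 1. The other marker values in this paragraph are TPM as deposited. Kit, the receptor for stem cell factor, had 113, 107 and 127 TPM, and Flt3, the receptor for FLT3 ligand, had 104, 99.7 and 114 TPM. By their means the markers ran from Cd34 (709.8 ± 33.1) through Mpo (466 ± 91.8), Myb (209.7 ± 18.2) and Kit (116 ± 10.3) to Flt3 (106 ± 7.07). The ranges of neighbours in that order did not overlap, except those of Kit and Flt3. Cd34 ranked 149 and Flt3 934 among all genes, so even the lowest of the 5 was abundant.

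Ddx41 itself, an ordinary member of the expressed genes, was at 35.9, 30.9 and 32.8 TPM and ranked 3129. Its mean of 33.2 TPM lay between the median of all expressed protein-coding genes, 18.1 TPM, and their upper quartile, 41.3 TPM. Of 21877 protein-coding genes listed, 9950 were expressed (45.5%), 937 were abundant and 105 exceeded 1000 TPM. A further 4160 had some counts but a mean under 1 TPM, and 7767 (35.5%) had no count in any library. These shares are the background for the gene lists below.

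The promoters of the markers differ widely in their content of CG, the dinucleotide that carries DNA methylation. The windows of 3 of them are shown because they hold the fewest and the most CG dinucleotides. Each sequence runs from 250 bases before to 50 bases after the transcription start listed by RefSeq for build GRCm38.p6, 5′ to 3′ on the gene's own strand, with every CG dinucleotide in capitals. Mpo lies on the plus strand at chr11:87793534-87793833, Cd34 on the plus strand at chr1:194938571-194938870 and Myb on the minus strand at chr10:21160935-21161234.
Mpo: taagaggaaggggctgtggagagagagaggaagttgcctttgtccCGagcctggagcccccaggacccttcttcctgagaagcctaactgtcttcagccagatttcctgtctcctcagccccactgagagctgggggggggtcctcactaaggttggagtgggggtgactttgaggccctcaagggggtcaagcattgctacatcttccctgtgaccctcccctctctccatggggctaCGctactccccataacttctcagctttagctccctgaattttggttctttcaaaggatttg
Cd34: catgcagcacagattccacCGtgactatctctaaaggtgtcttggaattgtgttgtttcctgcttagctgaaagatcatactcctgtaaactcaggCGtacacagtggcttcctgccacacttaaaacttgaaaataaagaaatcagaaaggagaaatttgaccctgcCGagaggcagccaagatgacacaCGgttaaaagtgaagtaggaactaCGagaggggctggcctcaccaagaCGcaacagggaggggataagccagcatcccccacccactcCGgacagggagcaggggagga
Myb: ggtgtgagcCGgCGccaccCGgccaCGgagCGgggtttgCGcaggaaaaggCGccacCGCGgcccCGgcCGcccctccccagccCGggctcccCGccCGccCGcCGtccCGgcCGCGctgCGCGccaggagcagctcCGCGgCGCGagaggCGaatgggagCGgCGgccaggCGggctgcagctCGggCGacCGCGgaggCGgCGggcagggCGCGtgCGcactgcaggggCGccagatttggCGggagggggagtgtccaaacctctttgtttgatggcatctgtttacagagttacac
Mpo holds 2 CG dinucleotides, Cd34 7 and Myb 40, and the windows of Flt3 and Kit hold 18 and 20. Over the 20450 promoters listed for protein-coding genes the median was 14. It was 18 for genes between 1 and 10 TPM, 22 for those between 10 and 100 TPM and 22 for abundant genes, and 80.9%, 81.2% and 82.6% of the genes in these bands had a listed promoter. Mpo and Cd34 are thus abundant genes with few CG dinucleotides, and Myb is one with many. The 10 promoters found for primary granule genes, the group Mpo belongs to, had a median of 5.5. The letters GAGGAA, searched on both strands, occur in 50% of those 10 promoters, the Mpo window among them, against 27.1% of all. They occur in 58.8% of 17 late neutrophil promoters and 75% of 16 for Fc receptors and surface lectins. Both of these lists had a median of 3 CG dinucleotides. For mast cell and basophil genes the share was 16.7% of 12, also with a median of 3. A match of letters is a description and not a binding site.

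A few structured RNAs took a large part of the transcript scale. The 3 highest entries alone, all of short noncoding RNAs, held 33.6% of TPM, and the 20 highest held 41.4% ± 4.03. 7SL RNA, the RNA core of the signal recognition particle that targets proteins to the endoplasmic reticulum, took 25.5%, 32.6% and 23.4% of TPM. 7SK RNA, which restrains the elongation factor P-TEFb, took 7.23%, 5.99% and 6.02%. Rpph1, the RNA of ribonuclease P, averaged 7816 ± 2945 TPM and Rmrp, the RNA of the related enzyme RNase MRP, 3088 ± 585 TPM. Because these RNAs are short, TPM weights them strongly. 7SL RNA held 1.72% of the counts, while other protein-coding mRNA held 85.2% of counts and 42.5% of TPM. 7SL was highest in library 2, where 363 of the 9950 expressed protein-coding genes had their highest TPM. With TPM rescaled over nuclear protein-coding genes, library 2 was highest for 2016 of 9937 genes.

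**Figure D1:**
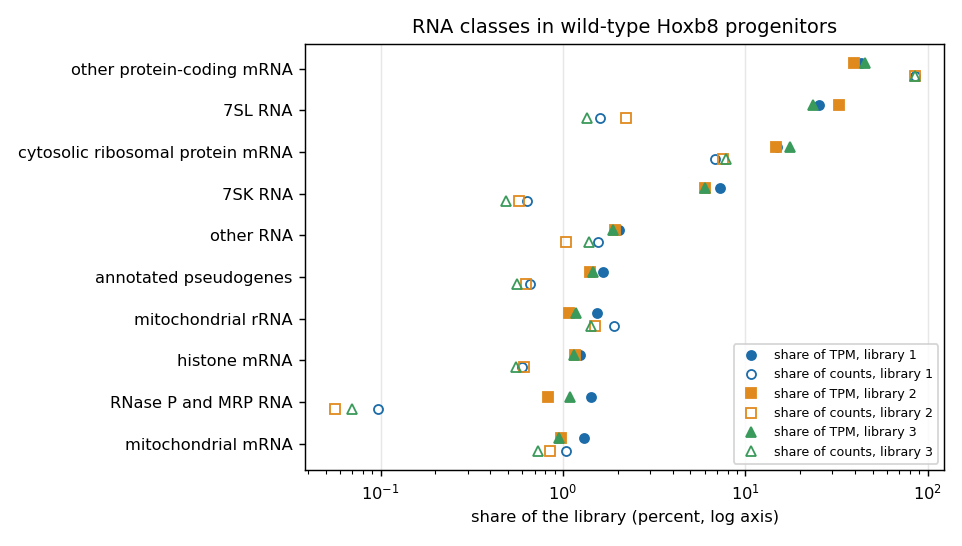
Share of each library held by RNA classes, in percent on a log axis, with filled symbols for TPM and open symbols for expected counts, and 1 symbol shape per library. 7SL RNA holds a mean of 27.2% of TPM and 1.72% of counts, and ribosomal protein mRNA 15.8% of TPM and 7.39% of counts.

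Mitochondrial transcripts followed. mt-Rnr2, the large mitochondrial ribosomal RNA, averaged 10598 ± 1953 TPM, and mt-Co1, a subunit of cytochrome oxidase, 4504 ± 732 TPM. The 13 protein-coding transcripts of the mitochondrial genome together took 1.31%, 0.974% and 0.955% of TPM, most in library 1. That sum leaves out Gm28437 and Gm28661, annotated as nuclear pseudogenes, which averaged 3477 and 3187 TPM. All 753 stretches of 31 bases in the transcript of Gm28437 occur in mt-Co3, and all 651 of Gm28661 occur in mt-Co2. mt-Co3 and mt-Co2 were themselves at 1052 and 236 TPM, and reads of each pair cannot be told apart.

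The most abundant mRNAs encoded the translation machinery. Eef1a1, which delivers aminoacyl-tRNA to the ribosome, led them at 7407, 7567 and 8638 TPM, a mean of 7871 ± 669. The ribosomal protein genes Rps12 (4930.4 ± 416 TPM), Rps27 (4435 ± 513 TPM), Rpl41 (4106 ± 619 TPM) and Rps29 (3647 ± 286 TPM) were among the next. Many of these have processed pseudogene copies, and their counts were partly shared estimates rather than whole reads. Outside that machinery the list mixed general and myeloid genes. Ptma, prothymosin alpha, averaged 2787 TPM, Ppia, cyclophilin A, 3043 TPM, and Npm1, nucleophosmin of the nucleolus, 1963 TPM.

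Several of the highest mRNAs are known for particular blood cells or secretion. Ifitm1, an interferon-induced membrane protein, was at 2437, 2378 and 2698 TPM and ranked 34. Car2, carbonic anhydrase 2, was at 2096, 1951 and 2453 TPM. Slpi, a secreted inhibitor of leukocyte serine proteases, was at 1807, 1852 and 2019 TPM. These 3 exceeded the chaperone Hsp90ab1 (1704 TPM) in each library. Srgn, the proteoglycan that packs enzymes into granules, averaged 1222 ± 83.3 TPM, and the chaperones Hspa8 and Calr averaged 1919.6 ± 244 and 1265 ± 60.9 TPM.

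Stem and progenitor genes were expressed in part. Of 20 such genes 12 were expressed, beside 45.5% of all protein-coding genes, and 3 had no count. The 20 include the 5 markers, and markers and lists were chosen with earlier results of these data known. The count is thus not read as a result about the list. Besides the 5 markers, Angpt1, a ligand of the receptor TIE2, was at 87.9, 75.8 and 95.1 TPM. Erg, an ETS factor of stem cells, was at 45.2, 42.95 and 47.95 TPM, and Hlf, a bZIP factor of stem cells and early progenitors, was at 39.9, 31.3 and 36.95 TPM. Sox4 and Gata2, further progenitor factors, averaged 23.1 ± 4.05 and 17.1 ± 1.38 TPM. Genes used to mark the long-term stem cell were low or not seen. Slamf1, which encodes the stem cell antigen CD150, had no count in any library, where 3 counts would give 0.0267 TPM. Mecom, a regulator of stem cell maintenance, and Nkx2-3 had none either. Procr, which encodes another stem cell antigen, averaged 3.73 ± 0.182 TPM, Ly6a, the gene of Sca-1, 0.347 TPM, and Cd48, an antigen of more mature progenitors, 0.08 TPM. Cd34 and Mpo were thus present without Slamf1 and with little Ly6a and Cd48 RNA.

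Early granulocyte genes were expressed as a group and late ones mostly were not. All 11 primary granule genes with an entry were expressed, with a median of 86.5 TPM, and the missing member is Azu2, which matched no entry. This list holds the marker Mpo and, like the others, was chosen with earlier results of these data known. Ctsg, the serine protease cathepsin G, was at 316, 332 and 304 TPM. Prtn3, proteinase 3, was at 141, 122 and 122 TPM. Serpinb1a, an inhibitor of these proteases, averaged 153 ± 6.49 TPM and Cst7, cystatin F, 149 ± 5.40 TPM. Elane, neutrophil elastase, which belongs to the same granule, was far lower at 5.21, 2.90 and 1.73 TPM. Ms4a3, a membrane protein of granulocyte and monocyte progenitors, was at 112, 93.2 and 54.6 TPM and lowest in library 3, like Mpo and Elane.

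Of 18 late neutrophil genes 6 were expressed. Mmp8, a collagenase of secondary granules, was the highest at 83.7, 89.9 and 65.03 TPM, and Lcn2, lipocalin 2, was at 24.1, 25.7 and 35.9 TPM. Camp, the cathelicidin, averaged 1.27 ± 0.336 TPM. S100a9, a calcium-binding protein that fills mature neutrophils, was at 0, 0 and 3.04 TPM, so its mean rests on library 3 alone. S100a8, its partner, averaged 0.43 TPM and Ltf, lactoferrin, 0.247 TPM. Ly6g, the neutrophil surface marker, had no count, nor had Cybb, the membrane subunit of the phagocyte oxidase. Mmp8 and Lcn2 were the only members of the later list above 10 TPM, against 9 of 11 in the primary granule list.

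Genes of monocytes and macrophages were mixed. Of 24 such genes 12 were expressed and 7 had no count. Emb, embigin, averaged 248.7 ± 10.2 TPM. Adgre1, the gene of F4/80, was at 97.1, 104 and 164 TPM, highest in library 3. Ccr2, the receptor that draws monocytes to inflamed tissue, was at 62.3, 54.1 and 51.1 TPM, and Cd14, a co-receptor for lipopolysaccharide, was at 30.4, 32.9 and 45.6 TPM. Csf1r, the receptor for macrophage colony-stimulating factor, was low at 3.33, 1.93 and 2.62 TPM, and lysozyme, Lyz2, was at 2.66, 2.33 and 3.48 TPM. C1qa and C1qc, chains of complement C1q in mature macrophages, had no count, nor had the macrophage factor Klf4. F4/80 RNA was thus abundant where Csf1r was low and C1qa had no count.

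Some genes of other myeloid fates were expressed. Of 12 mast cell and basophil genes 7 were expressed: Hdc, histidine decarboxylase, was the highest at 58.96, 58.5 and 60.3 TPM, almost equal in the 3 libraries. Cpa3, a mast cell carboxypeptidase, was at 41.1, 43.02 and 29.7 TPM, and Ms4a2, a subunit of the receptor for IgE, was at 22.4, 20.9 and 9.63 TPM. Both were lowest in library 3. Fcer1a, the IgE-binding subunit, and the mast cell proteases Mcpt4, Tpsb2 and Tpsab1 had no count. Among 9 eosinophil genes Siglecf, a sialic acid-binding lectin, was the 1 expressed, at 48.5, 45.1 and 45.6 TPM, while Prg2, the major basic protein, averaged 0.233 TPM and Epx, eosinophil peroxidase, had no count. Of 13 dendritic cell genes 3 were expressed, led by Bst2, tetherin, at 127 ± 13.6 TPM.

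Erythroid and platelet genes divided in a similar way. Of 18 erythroid genes 7 were expressed, but the 2 above 100 TPM, Car2 and the transferrin receptor Tfrc (214 ± 18.4 TPM), are also used by other cells. The adult β-globins Hbb-bt and Hbb-bs averaged 1.97 and 1.86 TPM, values that share reads between the 2 copies, and Hba-a1 had no count. Gata1 and Klf1, the erythroid factors, averaged 2.41 ± 0.786 and 1.22 ± 0.245 TPM. Of 14 megakaryocyte genes 6 were expressed. Plek, pleckstrin, was at 90.3, 85.7 and 158 TPM and Pf4, platelet factor 4, was at 16.1, 14.9 and 31.4 TPM, and both were highest in library 3. Itga2b and Gp9, parts of the platelet receptors for fibrinogen and von Willebrand factor, averaged 6.71 and 5.76 TPM.

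Some early lymphoid genes were on at low levels. Of 13 B lineage genes 7 were expressed, none with a mean above 15 TPM. Cd79b, a signalling chain of the B cell receptor, was at 13.2, 14.4 and 16.9 TPM. Ebf1, the factor that sets up the B cell program, was at 12.4, 9.35 and 12.1 TPM, and the recombinase gene Rag2 was at 11.8, 9.36 and 6.87 TPM. Pax5, which defines committed B cells, averaged 0.00667 TPM. Of 19 T and NK cell genes 4 were expressed, and Thy1, the antigen CD90, stood out at 162, 154 and 218 TPM. Cd3e and Cd8a had no count, and Cd4 averaged 0.01 TPM.

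Few genes of the cells that surround progenitors in fetal liver were expressed. Of 14 hepatocyte genes 2 were expressed, Trf (transferrin, 21.1 ± 5.69 TPM) and Apoa2 (3.13 ± 0.719 TPM), while Alb, albumin, had no count, where 3 counts would give 0.135 TPM. Of 12 endothelial genes Pecam1 (6.21 ± 1.37 TPM) and Eng (2.65 ± 0.507 TPM), which blood cells also use, were expressed, and Cdh5, the endothelial cadherin, had no count. Of 13 stromal genes Vim, vimentin, was at 311 ± 15.5 TPM and Pdgfrb, a receptor for platelet-derived growth factor, at 18.9, 18.02 and 21.1 TPM. Col1a1, Col3a1 and Pdgfra had no count. Alb, Cdh5, Col1a1, Col3a1 and Pdgfra were thus at 0, while Vim, Trf, Pdgfrb and Pecam1 of the same lists were not.

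**Figure D2:**
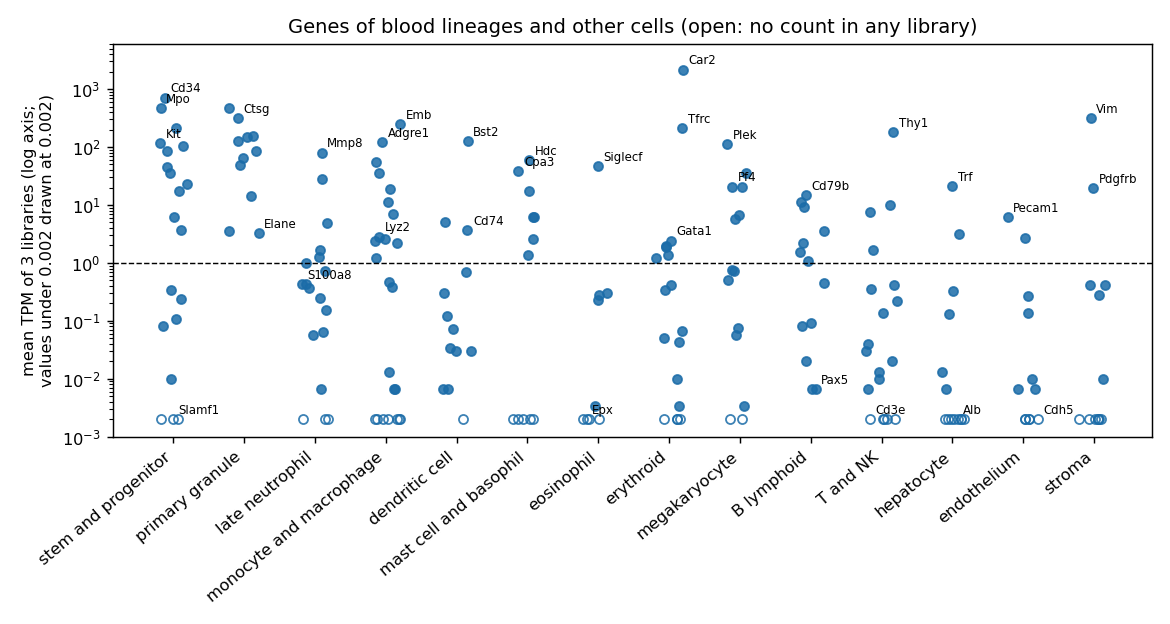
Mean TPM of the 3 libraries on a log axis for each member of 14 lists of blood lineages and neighbouring cells, with open circles for genes that had no count and a dashed line at 1 TPM. All 11 primary granule genes lie above the line, while most members of the late neutrophil, eosinophil, T and NK, hepatocyte, endothelium and stroma lists lie below it.

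Receptors of blood growth factors were widely expressed. Of 41 genes listed as cytokine receptors, which include the cytokine gene Tslp with no count, 26 were expressed. After Kit came Il2rg, the common γ chain, at 106, 100.1 and 123 TPM, then Flt3, and Csf2rb, the β chain shared by the receptors for IL-3, IL-5 and GM-CSF, at 83.2, 60.4 and 91.7 TPM. The α chains that give those receptors their specificity were low, with Csf2ra at 2.41 ± 0.594, Il3ra at 1.56 ± 0.786 and Il5ra at 0.307 TPM. Csf3r, the receptor for granulocyte colony-stimulating factor, was at 22.2, 19.5 and 19.9 TPM, which put it above Csf1r in every library. The interferon receptor chains Ifngr1, Ifnar2 and Ifnar1 averaged 42.3 ± 0.701, 37.2 ± 1.44 and 25.8 ± 0.31 TPM. Epor, the erythropoietin receptor, averaged 1.36 ± 0.453 TPM. Il6st, which encodes gp130, the signalling chain of the IL-6 family, had no count in any library, where 3 counts would give 0.0339 TPM, and Lifr and Osmr, which pair with it, had none.

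Of 18 Fc receptors and surface lectins 12 were expressed. Fcer1g, the adaptor chain of activating Fc receptors, was at 208, 207 and 239 TPM, Cd33, a sialic acid-binding lectin, at 187, 145 and 196 TPM, and Fcgr3, an IgG receptor, at 174, 169 and 179 TPM. Of 20 Toll-like and related receptors 12 were expressed. Clec4e, the lectin Mincle that senses mycobacterial glycolipids, was the highest at 244, 240.5 and 279.9 TPM, far above Tlr4 (24.3 ± 1.59 TPM) and the DNA sensor Aim2 (26.7 ± 6.48 TPM). Tlr2 averaged 2.53 ± 0.711 TPM, Tlr9 0.26 and Tlr7 0.01 TPM, and Tlr3 and Tlr8 had no count. Of 16 chemokine receptors 3 were expressed, among them Ccr2 and Cxcr4, the receptor for CXCL12 that holds progenitors in their niche, at 31.8, 26.9 and 31.2 TPM.

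Adhesion and growth factor receptors were present in part. Of 20 integrin genes 13 were expressed. Itgb1 averaged 147 ± 9.42 TPM, Itgb2 54.8 ± 6.11 and Itga4, which pairs with Itgb1 to bind VCAM1, 48.8 ± 9.66 TPM, while Itgam, the CD11b chain of mature myeloid cells, averaged 1.22 ± 0.539 TPM. Of 29 growth factor receptors 15 were expressed. Bmpr1a, a receptor for bone morphogenetic proteins, averaged 70.8 ± 6.43 TPM and Met, the receptor for hepatocyte growth factor, 59.2 ± 2.25 TPM, both higher than Tgfbr1 (24.6 ± 1.51 TPM), Notch2 (20.6 ± 1.93 TPM) and Insr (14.9 ± 2.22 TPM). Of 15 receptors of the TNF family 9 were expressed, all under 20 TPM. Among 28 nuclear receptors 11 were expressed. Rxrb was the highest at 33.8 ± 2.11 TPM and Nr3c1, the glucocorticoid receptor, averaged 13.3 ± 1.09 TPM. Esr1, the estrogen receptor α, was at 1.06, 0.64 and 0.69 TPM, and the counts do not tell whether reads of an estrogen receptor part of the immortalizing construct would be listed there.

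Of 55 hematopoietic transcription factors 43 were expressed, 26 at 10 TPM or more. Myb was the highest, followed by Lmo2 at 161, 152 and 181 TPM and Ldb1 at 116, 98.2 and 104 TPM, which bridge the partners of a large DNA-binding complex of progenitors. The DNA-binding members Tal1 and Lyl1 averaged 12.4 ± 0.589 and 59.3 ± 4.58 TPM. Spi1, the gene of PU.1, which drives myeloid fate, was at 61.1, 55.8 and 60.99 TPM. Cebpa, needed to form granulocyte progenitors, was at 26.8, 24.1 and 22.2 TPM, and Gfi1, a repressor that favours granulocytes, at 51.6, 46.7 and 47.3 TPM. Irf8, which favours monocytes and dendritic cells, was at 2.35, 1.98 and 2.40 TPM. Irf8 was thus far below Spi1, Cebpa and Gfi1 in every library.

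The core-binding factor genes were unequal. Cbfb, the shared partner, averaged 71.02 ± 6.98 TPM, while the DNA-binding Runx1, Runx2 and Runx3 averaged 6.23 ± 0.908, 10.3 ± 2.46 and 6.45 ± 1.16 TPM. Factors of later lymphoid cells were near 0 or not seen, with Pax5 at 0.00667 and Gata3 at 0.04 TPM and no count for Bcl11b and Lef1. Nfe2, a factor of megakaryocytes and erythroid cells, averaged 63.4 ± 3.33 TPM, and Ikzf1, Ikaros, 56.3 ± 4.57 TPM.

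Hoxb8 was the only gene of the 39 in the 4 Hox clusters that was expressed. It was at 40.4, 27.6 and 36.7 TPM, lowest in library 2, and it was lowest there too, at 68.1, 50.01 and 57.4, when TPM was rescaled over nuclear protein-coding genes. The next, Hoxa5, averaged 0.19 TPM. Hoxa9 and Hoxb4, known from stem cells and leukemia, had no count in any library, and 29 of the 39 genes had none. Whether the Hoxb8 reads come from the construct or from the cell's own gene cannot be told apart. Its DNA-binding partners were there: Meis1 was at 24.2, 17.8 and 21.4 TPM, Pbx2 at 29.3, 25.1 and 26.6 TPM and Pbx3 at 10.9, 8.65 and 10.5 TPM. Of 11 partner genes 7 were expressed.

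Transcription factors of the MYC and E2F families were also on, and genes known from fetal and pluripotent cells were divided. Myc was at 127, 115 and 125 TPM, Tfdp1, the partner of the E2F factors, at 244, 222 and 231 TPM, and 18 of 19 MYC and E2F family genes were expressed, with Mycl (0.66 TPM) under the threshold. Lin28b, an RNA-binding protein of fetal blood progenitors, was at 57.4, 46.97 and 46.8 TPM, and Hmga2 and Igf2bp3, further genes known from fetal tissue, were at 51.2, 39.7 and 44.7 TPM and at 41.4, 35.9 and 39.7 TPM. These were the 3 expressed of 10 genes of fetal and pluripotent cells. Their relatives Lin28a, Igf2bp1 and Igf2bp2 averaged 0.663, 0.00333 and 0.21 TPM. Nanog and Sox2, which mark pluripotent cells, had no count, and Pou5f1 averaged 0.0333 TPM.

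**Figure D3:**
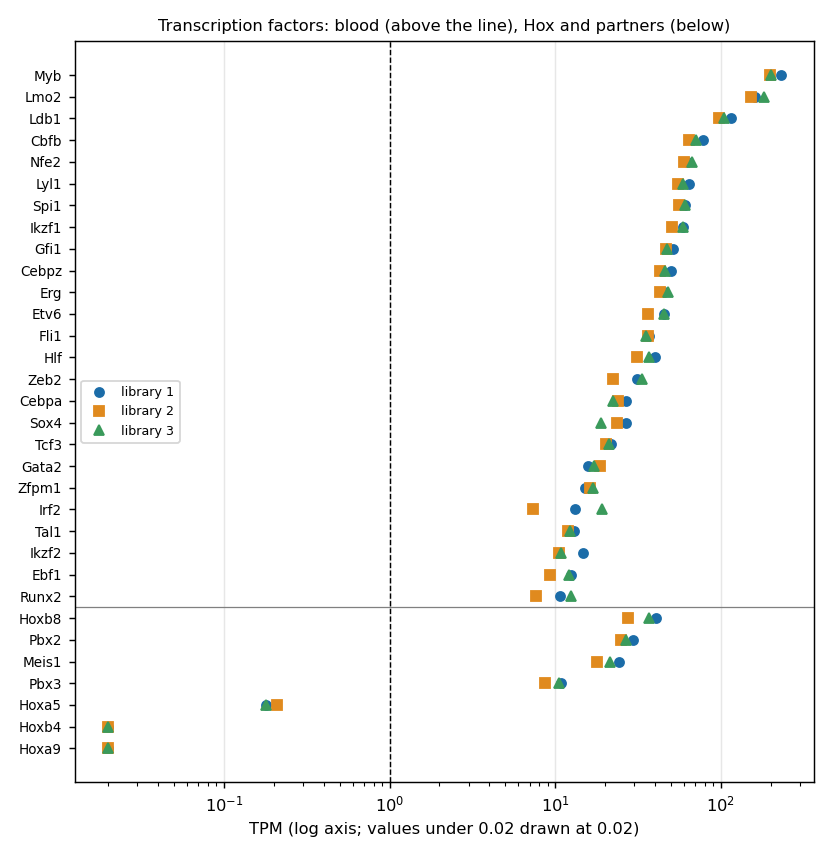
TPM in each library on a log axis for the 25 highest hematopoietic transcription factors, above the line, and for Hoxb8, its partners and 3 other Hox genes, below it, with a dashed line at 1 TPM and values under 0.02 TPM drawn at 0.02. Hoxb8 lies between 27.6 and 40.4 TPM, and Hoxa9 and Hoxb4 had no count.

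Metabolic genes were nearly all expressed. Of 22 glycolysis genes 20 were, 9 of them abundant. Gapdh was at 2306, 2331 and 3438 TPM, Eno1 at 1519, 1516 and 2227 TPM and Ldha, which makes lactate, at 965, 928 and 1462 TPM, each highest in library 3 with libraries 1 and 2 nearly equal. Ldhb, the other lactate dehydrogenase subunit, had no count, where 3 counts would give 0.119 TPM. Pkm exceeded Pfkp, the highest of the phosphofructokinases, at 987 ± 253 and 97.4 ± 22.7 TPM. Among glucose transporters Slc2a3 was at 37.4, 38.5 and 87.6 TPM and Slc2a1 at 29.1, 26.4 and 50.7 TPM.

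Mitochondrial metabolism was evenly covered. All 21 genes of the tricarboxylic acid cycle and pyruvate dehydrogenase were expressed, with a median of 98.3 TPM, led by Mdh2 (234 ± 13.2 TPM) and Idh2 (233 ± 13.5 TPM). Of the nuclear genes for the respiratory chain, 36 of 38 for complex I, 10 of 10 for complex III, 12 of 18 for complex IV and 19 of 19 for the ATP synthase were expressed. Atp5b, the catalytic subunit of the synthase, was the highest at 1517, 1479.6 and 1595 TPM. The members of complex IV that were not expressed, such as Cox6a2 and Cox4i2 at 0.187 and 0.02 TPM, are forms used in muscle, lung or testis. Of 14 fatty acid oxidation genes 12 were expressed as well, with Ppargc1a, a coactivator of mitochondrial genes, without a count.

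Pathways that supply building blocks were complete or nearly so. All 20 nucleotide synthesis genes were expressed, with Aprt and Impdh2, of purine salvage and guanine nucleotide synthesis, at 421 ± 39.3 and 329 ± 9.74 TPM. Serine synthesis genes Psat1 and Phgdh averaged 401 ± 60.04 and 262 ± 17.9 TPM. All 20 genes of cholesterol synthesis and uptake were expressed, led by Fdps at 191, 171 and 356 TPM, and Scd2, the desaturase of fatty acids, was at 261, 233 and 452 TPM. Fdps and Scd2 were both highest in library 3. All 9 pentose phosphate genes were expressed, with Tkt, transketolase, at 467 ± 31.5 TPM.

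Iron and oxidant handling had a few dominant members. Ftl1, the ferritin light chain, averaged 1704 ± 149 TPM against 496 ± 71.4 TPM for the heavy chain Fth1. Alas1, the general enzyme that starts heme synthesis, averaged 174 ± 35.5 TPM and its erythroid form Alas2 0.413 TPM. The iron exporter Slc40a1 had no count. Gpx1, a glutathione peroxidase, averaged 1149 ± 91.2 TPM, more than Sod1 (447 ± 13.8 TPM) and Prdx2 (232 ± 5.67 TPM).

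Genes of translation took a large share of TPM. The cytosolic ribosomal proteins, of which 84 of 87 were expressed, held 14.97%, 14.8% and 17.6% of TPM, and their median was 1709 TPM. The members not expressed were the testis or muscle paralogs Rpl10l, Rpl39l and Rpl3l. The 78 mitochondrial ribosomal proteins were all expressed at a median of 48.1 TPM. Initiation was led by the helicase Eif4a1 (1036 ± 56.1 TPM) and the poly(A)-binding protein Pabpc1 (435 ± 92.9 TPM), and elongation by Eef1a1, Eef1g (1411 ± 127 TPM) and Eef2 (1176 ± 132 TPM). Eef1a2, the form of Eef1a1 used in muscle and neurons, had no count. All 20 cytosolic aminoacyl-tRNA synthetases and all 30 ribosome biogenesis genes were expressed, with Nop56 and Fbl, which modify ribosomal RNA, at 360.4 ± 40.2 and 143 ± 5.63 TPM.

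**Figure D4:**
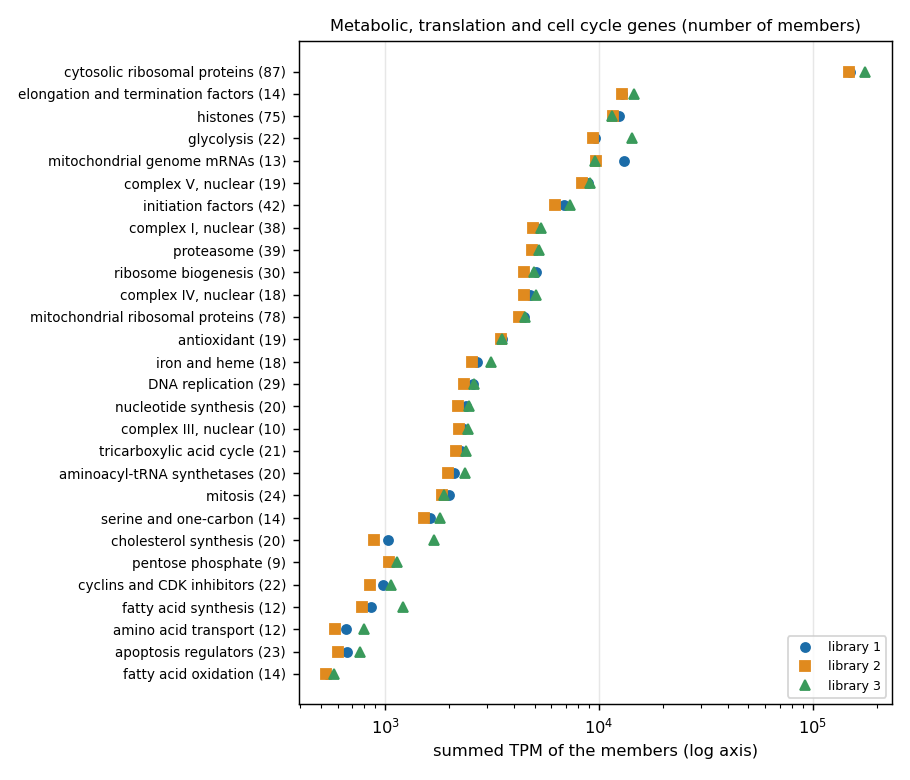
Summed TPM of the members of each metabolic, translation and cell cycle list in each library, on a log axis, with the number of members in brackets. Cytosolic ribosomal proteins lie far above the next list. Most lists lie highest in library 3 on this scale, among them cytosolic ribosomal proteins and the tricarboxylic acid cycle. Library 3 stands furthest apart for glycolysis, cholesterol synthesis and fatty acid synthesis.

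Genes of dividing cells were expressed throughout. Each of 29 DNA replication genes and 24 mitosis genes was expressed. Pcna, the sliding clamp of DNA polymerase, was at 306, 268 and 300.2 TPM and Mcm5, part of the replicative helicase, at 249.3, 237 and 250.4 TPM. Top2a, which untangles chromosomes, was at 271, 254 and 277 TPM, Cdk1 at 248, 229 and 242 TPM and Ccnb1, its cyclin, at 130, 117 and 119 TPM. These 3 mitosis genes differed little between libraries on TPM as deposited. With TPM rescaled over nuclear protein-coding genes, 0 of the 24 mitosis genes were highest in library 3. Of the kinases of the G1 phase Cdk4 averaged 289.7 ± 19.9 and Cdk6 85.4 ± 13.4 TPM. Among the D cyclins Ccnd3 averaged 57.5 ± 1.19, Ccnd2 19.1 ± 3.20 and Ccnd1 12.2 ± 1.60 TPM. The inhibitor gene Cdkn1a was at 28.8, 24.02 and 66.5 TPM, highest in library 3, and Cdkn2a at 2.58, 4.22 and 6.36 TPM.

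The 3 highest mitosis genes share promoter letters that the list was not chosen on. The 150 bases before each RefSeq start are shown, 5′ to 3′ on the gene's strand in GRCm38.p6, with CCAAT and its reverse complement ATTGG in capitals. Top2a lies at chr11:99024190-99024339, Cdk1 at chr10:69352913-69353062 and Ccnb1 at chr13:100786487-100786636, all on the minus strand.
Top2a: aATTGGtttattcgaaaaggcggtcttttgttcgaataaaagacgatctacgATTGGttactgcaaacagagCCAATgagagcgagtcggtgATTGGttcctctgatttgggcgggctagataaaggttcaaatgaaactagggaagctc
Cdk1: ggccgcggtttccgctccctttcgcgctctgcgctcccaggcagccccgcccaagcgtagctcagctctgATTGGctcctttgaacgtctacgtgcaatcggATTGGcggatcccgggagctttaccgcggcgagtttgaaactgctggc
Ccnb1: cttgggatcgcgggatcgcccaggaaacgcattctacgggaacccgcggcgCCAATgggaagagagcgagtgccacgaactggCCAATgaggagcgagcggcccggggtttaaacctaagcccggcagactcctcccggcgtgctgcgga
Top2a holds 4 matches, and Cdk1 and Ccnb1 hold 2 each. In windows of 300 bases CCAAT occurs on either strand in 81.8% of the 22 promoters found for 21 of the mitosis genes, against 38.1% of all 20450 promoters. It is not particular to mitosis genes, with 83.8% of 68 histone promoters. It is also in 70% of 10 promoters of Hox cluster D, whose genes had no count. The lowest share among the lists described was 7.14% of 14, for receptors of the TNF family. Among mitochondrial ribosomal protein genes another set of letters was frequent, CCGGAAG, on either strand in 34.7% of 75 promoters. It was in 11.8% of all promoters and 21.5% of those of abundant genes. Proteasome genes (32.4% of 34 promoters) and ATP synthase genes (30% of 20) came close. The share was 11.8% of 34 for complex I and 0% of 31 for glycolysis. No match says only that these letters are missing from the window.

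Signalling genes downstream of the receptors were mostly expressed. Of 24 JAK, STAT and SOCS genes 23 were, with Stat3 at 40.7 ± 5.67 and Jak1 at 38.4 ± 3.30 TPM, and Jak2 at 15.96, 14.99 and 14.1 TPM. Ptpn6, the phosphatase SHP-1 that dampens cytokine signals, was the highest at 104, 102 and 129 TPM, and Socs1 the only member under 1 TPM. All 25 RAS and PI3K pathway genes were expressed, where Nras averaged 40.5 ± 0.596 and Hras 36.1 ± 0.958 TPM. Of the SRC family Lyn averaged 48.8 ± 4.33 TPM, and Src itself 0.0633 TPM.

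The genes listed for their link to human myeloid neoplasms, the setting in which DDX41 is studied, were all expressed, 11 of them splicing genes with Ddx41 and 21 chromatin and related genes. Srsf2 averaged 274 ± 25.7, U2af1 165 ± 13.7 and Sf3b1 137 ± 16.2 TPM, and Zrsr2 was lower at 9.74 ± 0.635 TPM. Dnmt3a averaged 39.1 ± 1.63, Tet2 17.9 ± 5.88 and Asxl1 16.97 ± 3.30 TPM. Trp53 averaged 76.6 ± 2.27 TPM. Ddx41 was below the median of its list, which was 122 TPM.

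The 3 libraries were not interchangeable for every pathway. To set aside the unequal share of 7SL and mitochondrial RNA, TPM was rescaled to sum to 1000000 over nuclear protein-coding genes, which held 59.4%, 55.2% and 63.9% of TPM. On that scale the median coefficient of variation of 9937 expressed genes was 9.12%, and library 3 was the highest of the 3 for 25% of them. Library 3 was highest for 18 of 20 glycolysis genes, 18 of 20 cholesterol synthesis genes, 9 of 11 fatty acid synthesis genes, 12 of 13 hematopoietic ligands and 57 of 84 ribosomal proteins. It was highest for 0 of 24 mitosis genes, 0 of 11 primary granule genes and 4 of 78 mitochondrial ribosomal proteins. The median log2 ratio of library 3 to the mean of the others was 0.77 for cholesterol synthesis, 0.41 for glycolysis, -0.20 for mitosis and -0.27 for primary granule genes, beside -0.06 over all expressed genes. That ratio was 0.53 for hematopoietic ligands, 0.29 for fatty acid synthesis, only 0.07 for cytosolic ribosomal proteins and -0.11 for mitochondrial ribosomal proteins. These are counts and ratios within 1 group without a test.

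Single genes varied far more. The 10 most variable protein-coding genes of at least 10 TPM were H2bc24, Ccl4, Ddit4, Ccl3, Ier3, Scd1, Bhlhe40, Clu, H2ac23 and Cox7a1. They had the highest coefficients of variation of deposited TPM. Each was highest in library 3, as were 48.1% of the 9950 expressed protein-coding genes on that scale. H2bc24, Ccl4, Ddit4, Bhlhe40 and Clu were under 10 TPM in libraries 1 and 2. They passed the filter on the mean only through library 3, so their being highest there is partly built in. Ccl3, a chemokine that draws leukocytes, was at 157, 167 and 731 TPM, and its neighbour in function Ccl4 at 5.61, 5.69 and 31.4 TPM. Ddit4, an inhibitor of mTOR that responds to stress, was at 5.48, 5.36 and 25.4 TPM, and Ier3, an early response gene, at 36.4, 31.7 and 148 TPM. In each of these 4 genes libraries 1 and 2 lay close together and library 3 several times higher. The histone gene H2bc24 was at 0.21, 0.13 and 43.4 TPM, an estimate that shares reads with other histone genes. Why library 3 differs was not tested.

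**Figure D5:**
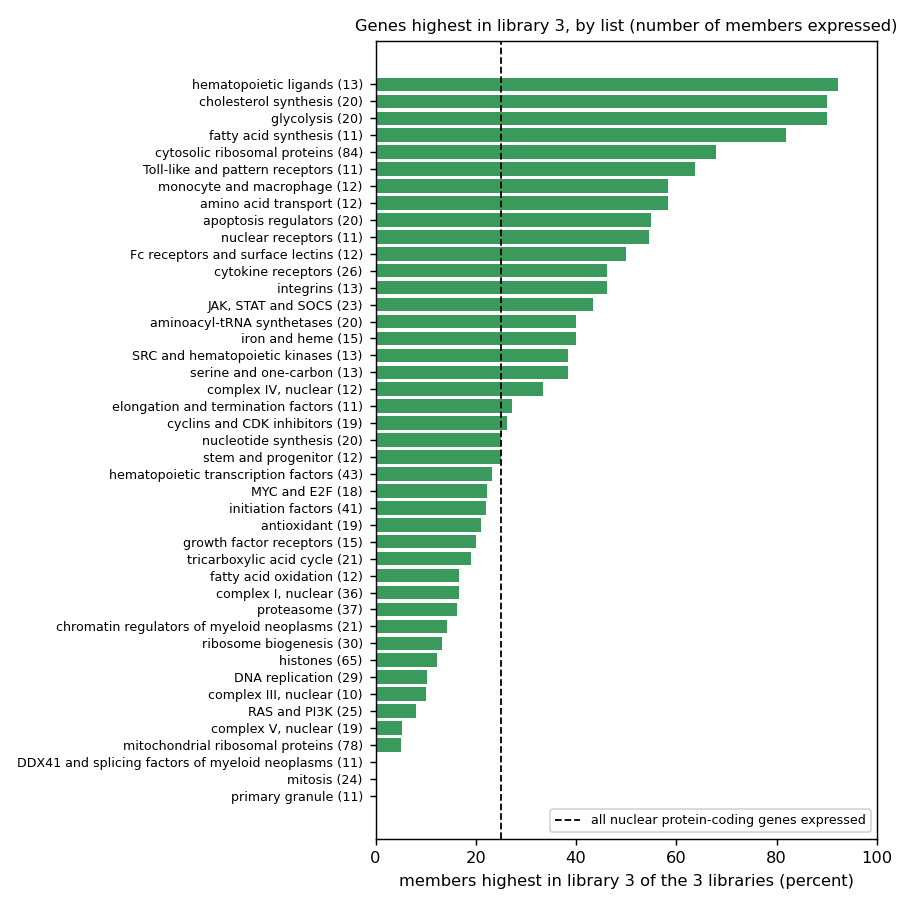
Percent of the expressed members of each list that were highest in library 3 of the 3 libraries, on TPM rescaled over nuclear protein-coding genes, with the number of members in brackets. The dashed line marks the 25% of all 9937 such genes. Hematopoietic ligands, cholesterol synthesis and glycolysis lie far right of it, and mitosis and primary granule genes at 0.

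RNA of some signals was found as well. Of 25 hematopoietic ligands and chemokines 13 were expressed, beside 45.5% of all protein-coding genes, and the list had a median of 3.57 TPM. The count is not read as a result about the list. After Ccl3, Tgfb1 was at 47.7, 37.7 and 41.8 TPM and Tnf at 17.4, 16.1 and 22.7 TPM. Csf2, the gene of GM-CSF, was at 8.97, 7.97 and 17.7 TPM and Il6 at 10.9, 8.33 and 15.4 TPM, both highest in library 3, and Flt3l averaged 3.57 ± 0.662 TPM. Kitl, the stem cell factor that KIT binds, and Il3 had no count in any library.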

How the data were processed

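Gene expression was read from 1 deposited table per sample. The tables come from RSEM, per the submitters' processing notes, whose version is not given in the sources used here, nor are the aligner and the build. Per the labels' protocols, total RNA was purified on columns and depleted of ribosomal RNA, and the library kit keeps the strand. The authors deposited, per the file headers, the expected count, an estimate that splits reads matching several genes. Among genes with a count, 19.6% to 19.8% per library had a fractional estimate. The deposited TPM, normalized by the authors for effective length and library total, is the level used here. The deposited FPKM entered as an alternative alone. Each sample's table was the one recorded for it, and its group came from its title. The tables of the other 12 libraries were not used here.

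Genes were ranked by mean TPM over the 3 libraries in Python 3.11.15 with numpy 2.4.6, pandas 2.3.3 and matplotlib 3.10.9. A gene was expressed at a mean of 1 TPM, abundant at 100 TPM, and not detected at no count in any library, with a floor of 3 counts per library. Correlations used log2(TPM + 1) over genes expressed. Counts differed between each pair of libraries by more than counting noise, with a chi-square per gene of 21.7 to 33.3, so no pair was counted as 1 sample; this does not show that they came from separate cultures. The calculation of TPM and of expressed genes was run on simulated counts with counting noise only. That run did not check the ranks and does not cover the larger spread between the real libraries. Gene types came from GENCODE M21, matched for 94.1% of 55359 identifiers, and promoters from RefSeq. No group was compared, and no other test was run.

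The genes named are Ddx41, the 5 markers, the 20 highest genes, the 20 highest protein-coding genes outside ribosomal protein, mitochondrial and histone genes, up to 5 members of each of 66 lists, low members that define a lineage, and the 10 most variable genes of at least 10 TPM. Further list members were named after their values were seen. The markers and lists were chosen with earlier results of these data known. Alternatives were other thresholds, FPKM, shares of counts, TPM rescaled without genes of an effective length under 200 bases or over nuclear protein-coding genes, a pseudocount of 0.1, no filter, and leaving out each library. A few genes that the naming rule covers are not reported here.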

Additional observations from a re-analysis of the deposited data

How the results depend on the processing

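The count of expressed genes, 11093, stayed within 1.5 times of itself at every setting tried. It was 12395 at a mean of 0.5 TPM, 8630 at 5 TPM, 10416 when 1 TPM was asked of every library, 11159 on FPKM, and 11561 with TPM rescaled without genes of an effective length under 200 bases. Levels and shares depend on what TPM is summed over. The share of the 20 highest genes was 10.02% of expected counts and 12.6% without short genes, and that of cytosolic ribosomal proteins 7.39% and 22.5%. Mitochondrial genome mRNAs held 0.872% of counts and 1.35% of TPM without short genes. Without short genes the markers stood at 1177 (Cd34), 777 (Mpo), 348 (Myb), 192 (Kit) and 175 (Flt3) TPM. Rescaling over nuclear protein-coding genes was chosen after seeing the data and counts those genes alone. It gave 10298 expressed genes, beside 9937 nuclear protein-coding genes expressed on TPM as deposited. The 20 highest held 11.8% on that scale and ribosomal proteins 26.5%. The markers stood there at 1196 (Cd34), 791 (Mpo), 354 (Myb), 195 (Kit) and 178 (Flt3) TPM. These shifts follow from the sum that is set to a constant, and the order of the 5 means was the same. The mean correlation between libraries was 0.971 with a pseudocount of 0.1 and 0.994 without a filter on low values.

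Leaving out 1 library at a time gave 10936 to 11335 expressed genes, 39.2% to 43.2% of TPM in the 20 highest, 14.9% to 16.3% in ribosomal proteins and 0.964% to 1.14% in mitochondrial mRNAs. Cd34 ranged over 692 to 724, Mpo over 429 to 517, Myb over 199 to 216, Kit over 110.2 to 120.2 and Flt3 over 102 to 109 TPM, and the correlation over 0.983 to 0.985. The number of expressed members summed over all lists, 1102, ranged over 1095 to 1104, and no list moved by more than 1.5 times. At 5 TPM 9 of 66 lists did so, among them cytokine receptors (16 members) and monocyte genes (7). No paired analysis was possible because the results come from no test between groups.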

Other observations

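Long noncoding RNAs were led by an entry that may not be one. Gm10076 averaged 1110.3 ± 223 TPM, and 82.2% of the 354 stretches of 31 bases in its transcript occur in Rpl41. Reads within those shared stretches cannot be told apart from that mRNA. Malat1, a nuclear speckle RNA, was at 867, 376 and 1088 TPM, lowest in library 2, and Neat1, the scaffold of paraspeckles, at 30.4, 14.4 and 38.1 TPM, in the same order of libraries. Gas5 and Snhg1, which host small nucleolar RNAs in their introns, averaged 616 ± 113 and 367 ± 76.1 TPM. Mir142hg, the host of a blood microRNA, was at 29.2, 21.4 and 17.5 TPM and Mir17hg, the host of a growth-promoting cluster, at 12.2, 5.37 and 5.50 TPM. H19 and Meg3, imprinted RNAs of fetal tissue, had no count in any library.

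The line carried Y-linked transcripts in every library. Ddx3y was at 28.2, 21.5 and 30.1 TPM, Eif2s3y at 45.7, 36.3 and 55.8 TPM, Uty at 18.01, 12.2 and 17.3 TPM and Kdm5d at 16.8, 15.1 and 15.01 TPM, and Xist had 0, 0 and 1 counts. All 4 Y-linked genes were thus expressed in each of the 3 libraries.

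Several values have limits. A gene without a count is bounded only by sequencing depth and by how reads were assigned, which also applies to Il6st, Ldhb and Slc40a1. TPM of short RNAs depends on the effective length used by the authors' program. Genes with near-identical copies, among them Eef1a1, Gapdh, Npm1, histone and ribosomal protein genes, have shared estimates. RNA levels say nothing of protein on the cell surface.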
